A study of Mus musculus with 20 samples.

Results

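Iron and heme handling in the mouse liver is described here through 10 genes, found by symbol among the 45306 genes of the deposited table. They are Hamp and Hamp2, which encode the iron hormone hepcidin and its paralog, Tfrc and Tfr2, which encode the transferrin receptors, Trf (transferrin), Fth1 (ferritin heavy chain), Slc40a1 (the iron exporter ferroportin), Scara5 (a ferritin receptor), Alas1 (the rate-limiting enzyme of heme synthesis in liver) and Hmox1 (the inducible enzyme of heme breakdown). The genes were picked with their behavior in these libraries known, so their differences between groups are a description. How many of them passed a threshold in edgeR, the main test, is given beside the share of all genes that did, and supports nothing. For other tests only the range of the number of all genes called is given.

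Liver RNA was sequenced from 20 C57BL/6 mice, as 1 library per mouse and 5 mice per group. Control mice were wild type and stayed at room temperature, and CE mice were wild type and underwent cold exposure at 4 °C for 3 h per day during 3 weeks. Sirt2-/- mice lacked exons 5 to 7 of Sirt2 from the germline on, after CRISPR-Cas9 editing, and Sirt2-/-/CE mice were knockouts that underwent the same cold exposure. The groups were formed when the mice were 5 weeks old; neither their sex nor the number of founder animals behind the knockout was found in the sources used here. All values are messenger RNA levels, and no protein, serum iron or tissue iron was analysed here.

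Libraries held 35499796 to 53917339 counts. Sirt2, the gene that was targeted, was lower in every knockout than in every wild-type liver, at 9.32 to 15.3 FPKM in Sirt2-/- against 20.1 to 22.9 FPKM in Control (log2 fold change -0.94 ± 0.15 (SE), edgeR's quasi-likelihood test, adjusted p = 0.0145). FPKM are the authors' fragment numbers scaled to gene length and depth, and levels of different genes are compared on that scale only. Hepatocyte markers were abundant throughout: Alb, for albumin, ranged from 28604 to 63344 FPKM. Markers of the other liver cells were not level, and those of sinusoidal endothelial cells (6 genes, summed as CPM, which are counts scaled to library size) ranged from 33.8 to 158 in CE and from 57.2 to 231 in Control. In bulk tissue, fewer cells of a type and less RNA per cell cannot be told apart. In Sirt2-/-, replicates 14 and 15 had summed circadian clock genes (12 genes) of 91.9 and 168 CPM, against 426 to 536 CPM in the other 3 mice of the group. A low sum does not mean that every clock gene was low. In Sirt2-/- against Control, 5 of the 12 had fitted values above 0 and 7 below. The lowest sums elsewhere were 321 CPM in CE replicate 9, against 393 to 496 CPM in the other CE mice, and 240.1 CPM in Sirt2-/-/CE replicate 19, against 288 to 531 CPM in the others of its group; Control mice had 489 to 585 CPM.

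Hepatocytes release hepcidin, which binds ferroportin on the surface of cells that export iron and leads to its breakdown, so that less iron enters the blood. Hamp transcription is raised by bone morphogenetic proteins (BMP), chiefly BMP6 and BMP2 from sinusoidal endothelial cells, through SMAD proteins, and by inflammation through STAT3. Inside cells, iron regulatory proteins bind a hairpin in messenger RNAs named the iron-responsive element, which protects the transferrin receptor message from decay when iron is short and blocks translation of ferritin and ferroportin. In the mouse Hamp is duplicated, and the product of Hamp2 has not been found to act on iron as hepcidin does.

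Hamp (ENSMUSG00000050440) and Hamp2 (ENSMUSG00000056978) lie on the reverse strand of chromosome 7, at chr7:30942368-30944032 and chr7:30922372-30924681 of the GRCm38 build in the GENCODE vM21 annotation, with 17686 bases between them. Sirt2 is on the same chromosome, 2133711 bases from Hamp2 and 2153707 bases from Hamp, and alleles near the edited locus were not examined. The coding sequences of both are 252 bases long including the stop codon and were identical at 93.7% of positions. The final 75 bases before the stop codon, which encode mature hepcidin in Hamp, differ at 14 positions, shown in capitals.
Hamp: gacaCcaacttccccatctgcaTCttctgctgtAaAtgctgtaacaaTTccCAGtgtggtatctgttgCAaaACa
Hamp2: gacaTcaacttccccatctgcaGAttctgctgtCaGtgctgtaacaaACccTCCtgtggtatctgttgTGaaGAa
The longest stretch shared by the 2 transcripts is 87 bases, and 16.6% of the 50-base stretches of Hamp but 0% of its 100-base stretches occur in Hamp2. How the counting treated reads that match both genes is not given in the sources used here, so part of the Hamp2 count could come from Hamp.

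The 250 bases before the RefSeq start of each gene (RefSeq promoters, GRCm38.p6) are shown because Hamp is controlled largely from this stretch. The GENCODE transcript of Hamp starts 3 bases further upstream. Of the 3 GENCODE transcripts of Hamp2, 2 share the RefSeq start and 1 starts 500 bases further upstream, so the stretch shown for Hamp2 lies within the gene span given above. Capitals mark GGCGCC, the core of the BMP-responsive element, and TTCNNNGAA, the letters of a STAT site; both read the same on either strand, and N is any base.
Hamp, chr7:30944030-30944279, reverse strand: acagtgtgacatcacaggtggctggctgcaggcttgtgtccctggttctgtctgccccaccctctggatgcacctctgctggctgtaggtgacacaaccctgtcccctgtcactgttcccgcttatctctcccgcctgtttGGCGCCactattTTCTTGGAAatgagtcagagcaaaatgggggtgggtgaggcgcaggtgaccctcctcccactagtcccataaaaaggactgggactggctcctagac
Hamp2, chr7:30924182-30924431, reverse strand: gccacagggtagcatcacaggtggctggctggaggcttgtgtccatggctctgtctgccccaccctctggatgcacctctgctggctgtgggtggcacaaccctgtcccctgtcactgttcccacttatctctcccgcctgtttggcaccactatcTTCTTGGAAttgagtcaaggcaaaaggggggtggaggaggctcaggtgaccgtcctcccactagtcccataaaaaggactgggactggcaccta
The promoters were identical at 90.8% of bases in a global alignment. GGCGCC lies 109 to 104 bases before the start of Hamp; at the aligned position of Hamp2 the change is G4A, counted from 1 at the 5′ end of the motif. TTCNNNGAA lies 97 to 89 bases before the start of Hamp and 94 to 86 bases before that of Hamp2. Of 27025 genes with a promoter entry, 10.8% hold GGCGCC and 8.13% hold TTCNNNGAA in these 250 bases. Among the 6 of the 10 genes with an entry, GGCGCC was in Hamp and Tfrc, and TTCNNNGAA in Hamp, Hamp2 and Alas1. The E-box CACGTG (6.86% of genes) and the antioxidant response core TGACNNNGC (11.5% of genes, either strand) were in none of the 6.

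Hamp was highest on average in Control livers, and no CE liver reached the lowest of them. The 5 Control mice had 2066, 1076, 2393, 753 and 785 FPKM, and the 5 CE mice had 557, 416, 320, 81.8 and 194 FPKM. The 2 groups thus did not overlap. The lowest of all 20 mice was CE replicate 9, which also had the lowest clock sum of its group. Fitted to the counts, Hamp was 4.41-fold lower in CE (log2 fold change -2.14 ± 0.62, SE, n = 5 per group; the errors of later log2 values are SE too). This difference was not called by edgeR or DESeq2 and was called by limma voom with sample quality weights, at -2.26. In Sirt2-/- the values were 426, 308, 112, 1803 and 714 FPKM, a 16.1-fold range within 1 group; 4 of the 5 mice were below the lowest Control mouse and replicate 14 was among the Control values. In Sirt2-/-/CE the values were 1375, 366, 443, 995 and 838 FPKM, which overlapped those of Sirt2-/-, of CE and of Control. On the log2 scale Hamp differed by -1.23 ± 0.61 between Sirt2-/- and Control, by 0.40 ± 0.60 between Sirt2-/-/CE and Sirt2-/-, and by 1.31 ± 0.61 between Sirt2-/-/CE and CE. Sirt2-/- replicate 14 moved the first 2 of these values most: without it they were -2.03 and 1.19. That mouse also had the low clock sum given above, and with a clock score as a covariate the first value was -2.20 and the difference between CE and Control was -2.43.

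Hamp2 was less abundant than Hamp in each of the 20 mice, and its spread between mice of a group was alike (SD of log2 CPM within groups 1.10, against 1.09 for Hamp). Control mice had 179, 66.05, 278, 74.0 and 24.1 FPKM, and CE mice 88.4, 34.2, 30.9, 24.2 and 41.9 FPKM, so the groups overlapped: CE replicate 6 was above 3 of the 5 Control mice. Sirt2-/- mice had 38.5, 18.8, 26.7, 90.7 and 29.9 FPKM, and Sirt2-/-/CE mice 95.5, 31.5, 33.1, 41.0 and 239 FPKM. The high mean of Sirt2-/-/CE, 88.1 ± 88.6 FPKM (SD, n = 5), came mainly from replicate 20. Against Control, Hamp2 was at -1.50 ± 0.65 in CE and at -1.75 ± 0.65 in Sirt2-/- on the log2 scale. Without Control replicate 3, the mouse highest in both genes, these values were -0.93 and -1.18. Sirt2-/-/CE differed from CE by 0.98 ± 0.64, and by 0.16 without replicate 20. Hamp2 made up 3.32% to 11.5% of the counts of both genes in Control, 8.39% to 24.8% in CE, 4.45% to 21.02% in Sirt2-/- and 4.39% to 24.2% in Sirt2-/-/CE, so the groups overlapped.

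With cold exposure, the fitted log2 values of Hamp and Hamp2 were below 0 in wild-type mice and above 0 in knockouts. EdgeR called neither gene in either genotype. The interaction of genotype and CE, which is the log2 fold change by CE in knockouts minus that in wild-type mice, was 2.54 ± 0.86 for Hamp and 2.74 ± 0.91 for Hamp2. With 1 mouse left out, it ran from 2.20 (without Sirt2-/-/CE replicate 16) to 3.34 (without Sirt2-/- replicate 14) for Hamp, and from 1.92 (without Sirt2-/-/CE replicate 20) to 3.25 (without Sirt2-/- replicate 14) for Hamp2. By edgeR's test neither passed an adjusted p of 0.05, and none of the 15616 genes tested did (0%), nor did any alternative call either gene; 2 of the 10 genes, these 2, and 8.34% of all genes were under an unadjusted p of 0.05.

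**Figure D1:**
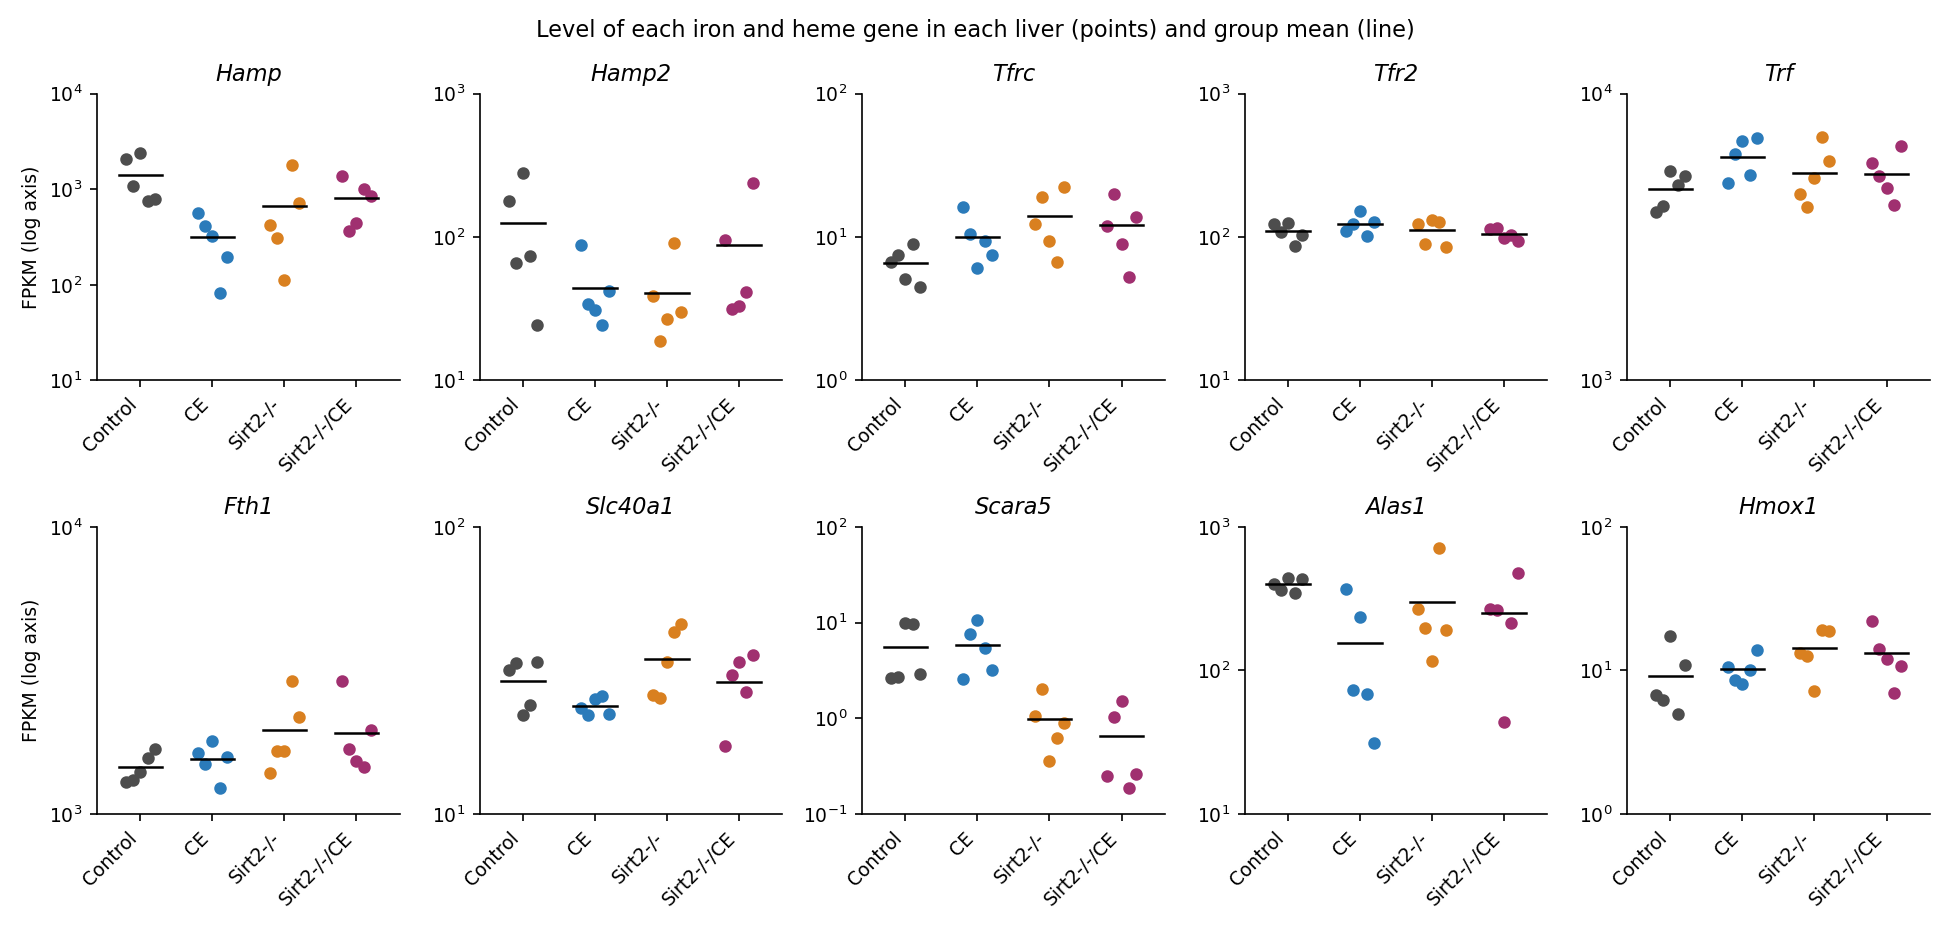
FPKM (log axes that differ between panels) of the 10 genes in each of the 20 livers, by group; points are mice and lines are group means. The 5 CE mice lie at 81.8 to 557 FPKM of Hamp, below the 753 to 2393 FPKM of Control, and the 10 knockout mice lie at 0.19 to 2.01 FPKM of Scara5, below the 2.55 to 10.6 FPKM of the wild-type mice.

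In the list of hepcidin control, which holds BMP ligands and targets of their signaling, Bmp6 and Id1 had the lowest unadjusted p of those with lower values in CE than in Control. Bmp6, the main iron-sensing ligand, was at 1.67, 1.11, 1.97, 0.32 and 1.39 FPKM in Control and at 0.56, 0.53, 0.27, 0.49 and 0.25 FPKM in CE. All Control mice but replicate 4 were above all CE mice. The fitted difference on the log2 scale was -1.58 ± 0.35 (edgeR's quasi-likelihood test, adjusted p = 0.147 over all genes). Without Control replicate 4 it was -1.83, with an adjusted p of 0.00625 by the same test. That mouse also had the lowest sum of endothelial markers in its group, 57.2 CPM, and all 6 of these markers had fitted values below 0 in CE (median log2 fold change -0.85); without the library lowest in these markers in Control, CE and Sirt2-/-, Bmp6 was at -1.73 and Hamp at -2.33. In knockouts exposed to cold Bmp6 was at 0.74, 1.43, 1.22, 1.13 and 0.92 FPKM, above every CE mouse (1.27 ± 0.35, adjusted p = 0.426), with endothelial marker sums of 177 to 278 CPM against 33.8 to 158 CPM in CE. In Sirt2-/- mice, Bmp6 was at 0.91 to 1.59 FPKM, inside the range of Control, with means of 1.26 and 1.29 FPKM. Hamp differed by -1.23 ± 0.61 between those 2 groups, so Bmp6 and Hamp did not run in parallel there.

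Id1, a direct target of BMP signaling, followed Hamp from mouse to mouse. Among the 10590 genes that averaged 1 FPKM or more, it was the gene whose log2 CPM was most like that of Hamp over the 20 libraries (Pearson r = 0.81, Spearman rho = 0.82, and r = 0.74 after the group means were removed). Control mice had 10.8, 4.60, 30.9, 3.35 and 5.58 FPKM of Id1, and CE mice 6.77, 4.01, 2.08, 1.94 and 1.08 FPKM. The groups overlapped (-1.80 ± 0.64 on the log2 scale, edgeR, adjusted p = 0.3), and without Control replicate 3 the value for Id1 was -0.89. Sirt2-/- replicate 14 and Sirt2-/-/CE replicate 16, the highest of their groups in Hamp, were also the highest of their groups in Id1, at 13.3 and 17.3 FPKM. The libraries share depth and makeup differences, so the likeness is a description. Next to Id1 in likeness to Hamp were Trnau1ap (r = 0.77) and Snhg1 (r = 0.77), and the genes most like Hamp2 were Cyp2d22 (r = 0.83), BC089597 (r = 0.79) and BC021614 (r = 0.78).

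**Figure D2:**
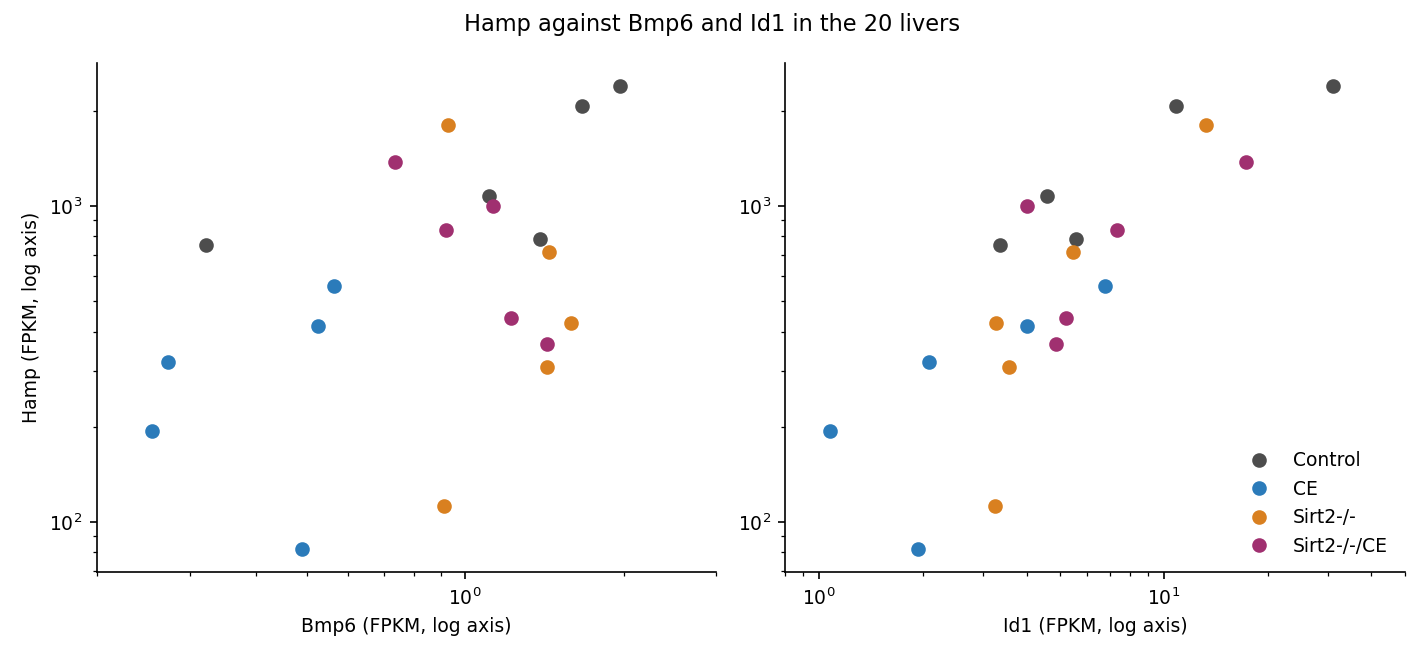
Hamp against Bmp6 (left) and Id1 (right), in FPKM on log axes, for the 20 livers colored by group. Mice with more Id1 tended to have more Hamp (r = 0.81 in log2 CPM), and the 5 CE mice sit at 0.25 to 0.56 FPKM of Bmp6, a range that 1 Control mouse shares.

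Control replicate 3 held the highest Hamp, Hamp2, Bmp6 and Id1 of all 20 mice, and its summed acute-phase genes (8 genes, among them Saa1, Saa2 and Lcn2) were at 13443 CPM, against 3402 to 4322 CPM in the other Control mice. In CE these sums were 3253 to 9706 CPM while Hamp was low, with 9706 CPM in replicate 10, which had 194 FPKM of Hamp. They were 2468 to 4507 CPM in Sirt2-/- and 2455 to 4851 CPM in Sirt2-/-/CE. Of the 8 genes, 7 had fitted values below 0 in Sirt2-/- against Control, and 8 in Sirt2-/-/CE against CE. The part of inflammation in the Hamp values was not tested.

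The transferrin receptors differed in level and in spread. Tfrc (chr16:32608920-32632794, forward strand) takes up transferrin-bound iron in most cells, and Tfr2 (chr5:137569840-137587481, forward strand) senses transferrin-bound iron in hepatocytes and acts on hepcidin. In the 3′ UTR of Tfrc, 4 iron-responsive elements were found by a search for the 6-base loop CAGTGN closed by 5 pairs (G with T allowed), then an unpaired C on the 5′ side and at least 4 pairs in the next 5 bases. They are shown because they tie Tfrc, Fth1 and Slc40a1 to cellular iron; the loop is in capitals and the transcript is written in DNA letters (GRCm38, forward strand unless given).
Tfrc, chr16:32631220-32631246: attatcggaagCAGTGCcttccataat
Tfrc, chr16:32631599-32631625: attatcgggagCAGTGTcttccataat
Tfrc, chr16:32631664-32631690: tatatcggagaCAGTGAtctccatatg
Tfrc, chr16:32631711-32631737: attatcgggaaCAGTGTttcccataat
The same search found 1 element each in the 5′ UTR of Fth1 and Slc40a1, on the opposite end of the message.
Fth1, chr19:9982733-9982759: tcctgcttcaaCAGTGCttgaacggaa
Slc40a1, chr1:45925466-45925492, reverse strand: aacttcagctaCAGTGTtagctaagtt
Of 21901 protein-coding genes, 18 (0.0822%) held such a hairpin in a UTR, and 3 of the 10 genes did. The search misses elements of any other form.

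Tfrc was lowest on average in Control, at 6.68, 7.45, 5.11, 8.99 and 4.49 FPKM. CE mice had 16.1, 10.5, 6.11, 9.32 and 7.47 FPKM, Sirt2-/- mice 12.3, 18.96, 9.40, 6.68 and 22.1 FPKM, and Sirt2-/-/CE mice 11.96, 20.1, 8.99, 5.22 and 13.9 FPKM. Each of these groups overlapped Control, though 4 of the 5 Sirt2-/- mice were above the highest Control mouse. Fitted log2 values were 0.65 ± 0.33 for CE and 0.97 ± 0.34 for Sirt2-/- over Control, and -0.18 ± 0.33 for Sirt2-/-/CE over Sirt2-/-. EdgeR called Tfrc in no comparison; limma voom with sample quality weights called it in Sirt2-/- against Control, at 1.10. The genes most like Tfrc over the libraries were Hspa4l, Hsp90aa1 and Tmem33 (r = 0.86, 0.86 and 0.85).

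Tfr2 varied least of the 10 genes. It ranged from 85.4 to 152 FPKM over all 20 mice, a 1.77-fold range, and its 4 fitted differences between groups lay between -0.31 ± 0.17 and 0.20 ± 0.17 on the log2 scale. Serping1 and F2, both plasma protein genes of hepatocytes, were most like it (r = 0.86 and 0.85).

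Trf, the iron carrier of plasma (chr9:103204001-103230444, reverse strand), was the most abundant of the 10 genes in all groups. It was at 4655 ± 673 FPKM in Control, 6018 ± 951 in CE, 5280.4 ± 1191 in Sirt2-/- and 5238 ± 952 in Sirt2-/-/CE (SD, n = 5 each). CE was paired with a log2 difference of 0.39 ± 0.19 in wild-type mice and 0.09 ± 0.19 in knockouts, and all groups overlapped. Trf shares 2108 exon bases with the overlapping gene model Gm20425, but near-identical genes held at most 0.481% of the family's counts. Tmem176b and Hpx (hemopexin, the plasma heme carrier) were most like Trf (r = 0.89 and 0.89).

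Fth1, the iron-oxidizing subunit of ferritin (chr19:9980598-9985098, forward strand), was the next most abundant, and its spread was larger in knockouts. Control mice had 1287 to 1687 FPKM and CE mice 1233 to 1797 FPKM, while the knockout groups reached 2916 FPKM in Sirt2-/- replicate 14 and 2909 FPKM in Sirt2-/-/CE replicate 16. Medians were close, at 1397, 1581, 1659 and 1679 FPKM in Control, CE, Sirt2-/- and Sirt2-/-/CE. For Sirt2-/- over Control the fitted log2 value was 0.28 ± 0.22. Gadd45gip1, Nt5c and Psmd13 were most like Fth1 (r = 0.96, 0.95 and 0.93). The single gene with a near-identical transcript, Gm6977, held 0% of the counts.

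Slc40a1, the exporter that hepcidin acts on (chr1:45908068-45926523, reverse strand), was at 29.0 ± 5.5 FPKM in Control, 23.7 ± 1.7 in CE, 34.8 ± 9.5 in Sirt2-/- and 28.8 ± 7.3 in Sirt2-/-/CE (SD, n = 5 each). Both wild-type groups stayed between 22.1 and 33.8 FPKM, and Sirt2-/-/CE held the lowest mouse of all, at 17.3 FPKM. Its log2 difference from Control was -0.27 ± 0.18 in CE and 0.10 ± 0.18 in Sirt2-/-; the latter was -0.20 with limma voom and sample quality weights. Ferroportin is also strong in Kupffer cells, whose 11 markers summed to 295 to 670.2 CPM in knockouts and 150 to 531 CPM in wild-type mice; their part in Slc40a1 was not tested. Mettl2 was the gene most like it (r = 0.77).

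Of the 10 genes, Scara5 was the one that set knockouts apart. It encodes a scavenger receptor that binds ferritin and lies at chr14:65666403-65764826, on the forward strand. Control mice had 2.65, 2.72, 9.82, 9.75 and 2.93 FPKM, and CE mice 2.55, 7.62, 10.6, 5.37 and 3.21 FPKM. Sirt2-/- mice had 1.06, 2.01, 0.36, 0.62 and 0.89 FPKM, and Sirt2-/-/CE mice 0.25, 1.03, 1.51, 0.19 and 0.26 FPKM. All 10 knockout mice were below all 10 wild-type mice, which held 423 to 2009 counts against 30 to 289 counts in knockouts. The share of all genes that part these mice in the same way was not counted. Scara5 fell in Sirt2-/- against Control by edgeR's test (adjusted p = 0.0462, close to the threshold), with a log2 fold change of -2.68 ± 0.63, 6.40-fold lower. In Sirt2-/-/CE against CE the value was -3.33 ± 0.65, which did not pass edgeR's threshold, in a comparison where 0.0128% of genes did; DESeq2 called it. CE was paired with 0.09 ± 0.58 in wild-type mice and -0.56 ± 0.61 in knockouts.

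The call of Scara5 was less stable than the direction of its difference. Leaving out any of the 10 mice of Sirt2-/- against Control ended the call, with log2 fold changes from -3.11 (without Sirt2-/- replicate 12) to -2.37 (without Control replicate 3), and limma voom with sample quality weights gave -1.73, not called. Scara5 spread from 2.65 to 9.82 FPKM within Control and from 2.55 to 10.6 FPKM within CE. Scara5 is known from fibroblasts as well as epithelia. The summed markers of stellate cells and fibroblasts (8 genes) were 93.3 to 255 CPM in Sirt2-/- and 102 to 227 CPM in Control. They were 154 to 211 CPM in Sirt2-/-/CE and 35.9 to 189 CPM in CE. Markers of cholangiocytes (5 genes), the epithelium of bile ducts, summed to 28.5 to 43.5 CPM in Sirt2-/- and 37.5 to 76.8 CPM in Control. In Sirt2-/-/CE and CE they were at 23.5 to 39.6 and 36.2 to 66.1 CPM. The part of these cells in Scara5 was not tested. The genes most like Scara5 over the 20 libraries were Atp11a, Snx10 and Irf2 (r = 0.87, 0.84 and 0.83, and 0.61, 0.61 and 0.50 after the group means were removed).

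Alas1 (chr9:106233455-106248654, reverse strand) was level in Control and scattered in the other groups. Control mice had 400, 363, 443, 347 and 435 FPKM, a 1.28-fold range. CE mice had 372, 73.0, 234, 68.7 and 31.2 FPKM, an 11.9-fold range, with 4 of the 5 below every Control mouse. Sirt2-/- mice had 268, 197, 117, 719 and 192 FPKM, and Sirt2-/-/CE mice 268, 263, 43.9, 214 and 477 FPKM. Alas1 was apart from Control by -1.25 ± 0.55 in CE and by -0.39 ± 0.54 in Sirt2-/- on the log2 scale, and Sirt2-/-/CE from CE by 0.63 ± 0.54; all groups overlapped. With 1 mouse left out, the latter 2 values ran from -0.89 (without Sirt2-/- replicate 14) to -0.19 (without Sirt2-/- replicate 13), and from 0.28 (without Sirt2-/-/CE replicate 20) to 1.13 (without CE replicate 6). Alas1 is known to follow fasting and the clock, and Sirt2-/- replicate 14, its highest mouse, had 91.9 CPM of summed clock genes; replicate 15, at 168 CPM, had 192 FPKM of Alas1. With a clock score in the model the 2 differences from Control were -1.30 and -0.54. Alas1 shares 465 exon bases with 4930500F10Rik on the other strand, and Hamp2 shares 89 with Gm44662, and without known strand such reads cannot be told apart. Among the 10 genes, Alas1 was the one most like Hamp after Hamp2 (r = 0.70, against 0.73). Rps27, Srsf2 and Rbm3 were most like Alas1 among all genes (r = 0.80, 0.78 and 0.78).

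Hmox1 (chr8:75093621-75100589, forward strand) opens the heme ring and releases its iron. It was at 9.22 ± 5.01 FPKM in Control, 10.2 ± 2.34 in CE, 14.3 ± 4.98 in Sirt2-/- and 13.2 ± 5.67 in Sirt2-/-/CE (SD, n = 5 each). The highest wild-type mouse was Control replicate 3 at 17.3 FPKM, and the highest knockout was Sirt2-/-/CE replicate 16 at 22.3 FPKM, in which Kupffer markers (670.2 CPM) and erythroid markers (850.3 CPM) were also the highest of all mice. Slc4a1, an erythroid membrane gene of the latter list, was at 0 in 10 libraries. Log2 differences from Control were 0.46 ± 0.34 in Sirt2-/- and 0.15 ± 0.34 in CE. Hmox1 is strong in macrophages; all 11 Kupffer markers had fitted values above 0 in Sirt2-/- against Control (median 0.39 on the log2 scale), none of them called, and their part in Hmox1 was not tested. The gene most like Hmox1 was Tcn2 (r = 0.78).

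Levels of the 10 genes in Control ran in the order Trf, Fth1, Hamp, Alas1, Hamp2, Tfr2, Slc40a1, Hmox1, Tfrc and Scara5. The neighbors Fth1 and Hamp, Hamp2 and Tfr2, Hmox1 and Tfrc, and Tfrc and Scara5 overlapped between mice. In CE, Hamp overlapped Alas1 and lay below the whole range of Fth1, and Tfr2 (123 ± 18.9 FPKM) stood above Hamp2 (43.9 ± 25.7). In both knockout groups Scara5 was below the range of every other gene. The largest ratio between the highest and lowest of the 20 mice was 57.3 for Scara5, followed by 29.2 for Hamp, 23.0 for Alas1 and 14.7 for Hamp2, and the smallest were 1.82 for Trf and 1.77 for Tfr2.

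**Figure D3:**
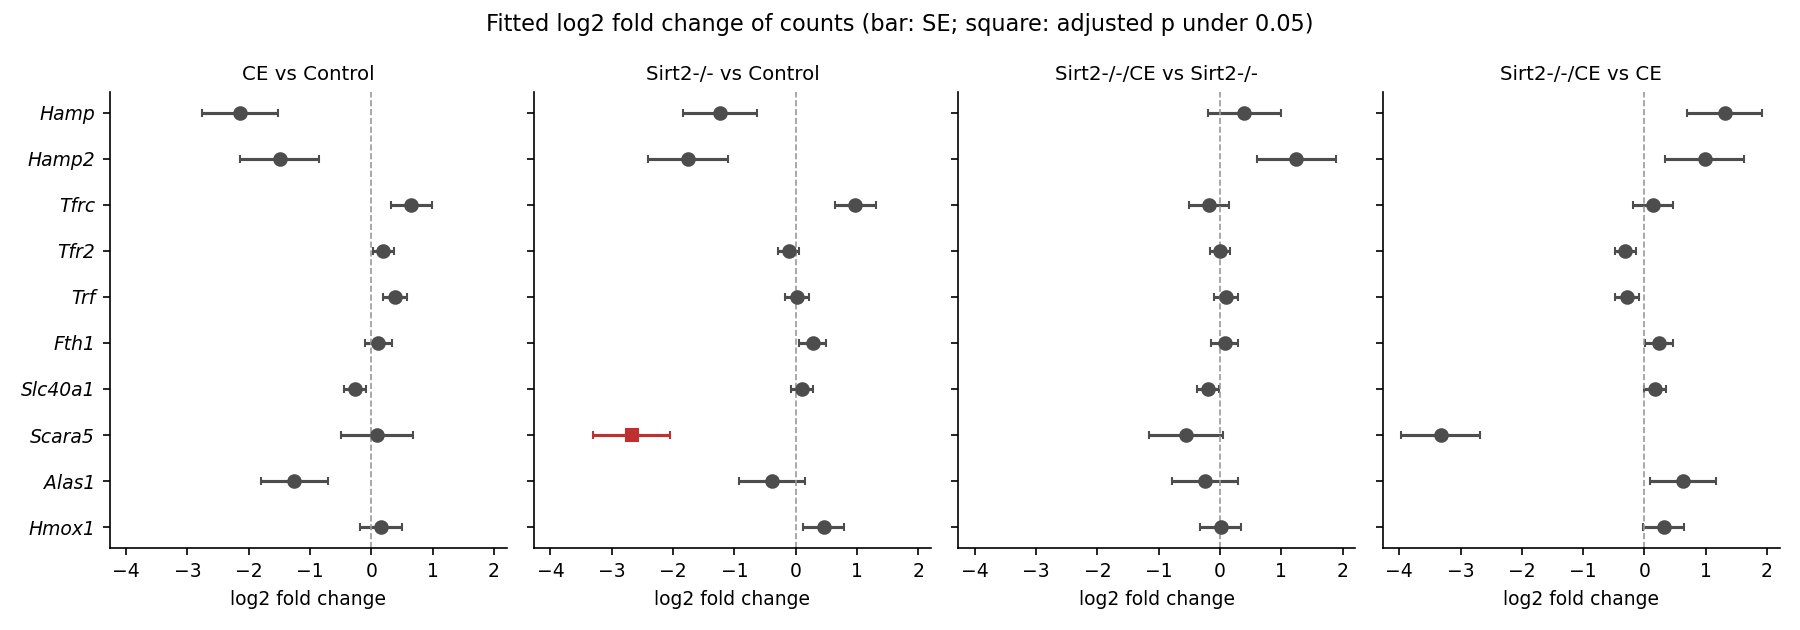
Log2 fold change of the 10 genes from counts in 4 comparisons; bars are standard errors and the red square marks an adjusted p under 0.05. Hamp and Hamp2 lie left of 0 in the 2 comparisons with Control and right of 0 in the other two, and Scara5 lies at -2.68 and -3.33 in the 2 comparisons of knockout with wild type.

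Counted over the 10 genes, edgeR made few calls, and the counts and shares that follow are edgeR's unless another test is named. In CE against Control 0 of 10 were called at an adjusted p under 0.05, where 0.0064% of all genes were, while limma voom called 1 (Hamp); 3 of 10 (Hamp, Hamp2 and Alas1) were under an unadjusted p of 0.05, against 10.7% of all genes, and 1 (Hamp) did not overlap between groups, against 3.04%. In Sirt2-/- against Control 1 of 10 was called (Scara5), against 0.89% of all genes, while limma voom called Hamp, Hamp2 and Tfrc and not Scara5; 3 (Scara5, Hamp2 and Tfrc) were under an unadjusted p of 0.05, against 14.9%, and 1 (Scara5) did not overlap, against 3.61%. In Sirt2-/-/CE against Sirt2-/- 0 of 10 and 0% of all genes were called, 0 were under an unadjusted p of 0.05, against 7.25%, and 0 did not overlap, against 0.743%. In Sirt2-/-/CE against CE 0 were called, while DESeq2 called 1 (Scara5); 2 (Scara5 and Hamp) were under an unadjusted p of 0.05, against 6.09%, and 1 (Scara5) did not overlap, against 1.22%. The calls of limma voom and DESeq2 do not belong beside edgeR's shares. Apart from the removal of single mice, the alternatives called 0 to 540 of all genes in CE against Control. They called 0 to 906 in Sirt2-/- against Control and 0 to 31 in Sirt2-/-/CE against CE. Since the genes were picked from these contrasts, nothing is read from the shares. For CE over Control, the log2 fold changes of the 10 genes had a median of 0.10, beside -0.01 over all genes, and for Sirt2-/- over Control the 2 medians were -0.05 and 0.02. CE and Sirt2-/- were each compared with the same Control mice, so their values for a gene are not independent.

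Beyond the 10 genes, 72 further genes of iron and heme biology were tested, in lists by role. EdgeR called 1 of them over all comparisons, Uros in Sirt2-/- against Control. DESeq2 called 2 in CE and 3 in Sirt2-/-, and limma voom 3 and 7, each against Control. In these 2 comparisons, alternatives other than the removal of 1 mouse called up to 540 and 906 of all genes. Uros, which closes the ring of the heme precursor, rose in Sirt2-/-, from 5.06, 5.86, 4.53, 7.54 and 7.17 FPKM in Control to 8.28, 9.93, 11.2, 14.9 and 15.2 FPKM. All Sirt2-/- mice were above all Control mice in FPKM, but the groups overlapped in CPM scaled by TMM. Uros differed by 0.81 ± 0.19 on the log2 scale (edgeR's quasi-likelihood test, adjusted p = 0.0469), and the call was kept without Control replicate 4, Sirt2-/- replicate 11 or Sirt2-/- replicate 13 and lost without any of the other 7 mice. It was also lost with the clock score as a covariate, with upper-quartile scaling, without the filter on low counts and with only the groups compared. Uros was highest in replicates 14 and 15, the mice with low clock sums. Beyond the refit with the clock score, the part of the clock in the Uros values was not tested. In Sirt2-/-/CE it was at 6.87 to 9.66 FPKM, -0.44 ± 0.19 from Sirt2-/- on the log2 scale (adjusted p = 0.666).

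Of 15 genes of iron uptake, storage and release, edgeR called 0 in any comparison; Slc11a2, the ferrous iron transporter DMT1, was at 4.32 to 5.92 FPKM in Control, 6.57 to 9.95 in CE and 7.30 to 10.8 in Sirt2-/-, without overlap with Control in either. Its log2 difference was 0.58 ± 0.16 in CE (edgeR, adjusted p = 0.193) and 0.59 ± 0.16 in Sirt2-/- (edgeR, adjusted p = 0.0739), with an interaction of -0.75 ± 0.22 (edgeR, adjusted p = 0.395). Other tests called Slc11a2: DESeq2 (adjusted p = 0.0488 in CE and 0.0245 in Sirt2-/-), limma voom with sample quality weights (0.0282 and 0.0121) and, in Sirt2-/- alone, edgeR with scaling by library size only (0.042) and limma on log2 FPKM (0.0447). Lcn2, a carrier of siderophores that also belongs to the acute-phase list, was at -3.62 ± 1.22 in Sirt2-/- against Control (adjusted p = 0.151), where Control replicate 3 alone had 247 FPKM and the other 4 Control mice 1.21 to 7.996 FPKM; without that mouse the value was 0.04. Pcbp2, an iron chaperone, was at -0.44 ± 0.15 in the same comparison (adjusted p = 0.154). There DESeq2 called Lcn2, limma voom called Pcbp2, as did edgeR without the library lowest in endothelial markers in each of Control, CE and Sirt2-/-, and scaling by library size only called Pcbp1, another iron chaperone. Ceruloplasmin (Cp), which oxidizes exported iron, was at -0.56 ± 0.19 in Sirt2-/-/CE against CE (adjusted p = 0.559), and Ncoa4, the receptor for ferritin breakdown, at -0.33 ± 0.20 in Sirt2-/-/CE against Sirt2-/- (adjusted p = 0.781). Of 20 genes of hepcidin control, 4 were lower and 1 was higher in CE at an unadjusted p under 0.05, and 3 were higher and 0 lower in Sirt2-/-/CE against CE (25% and 15% of the list, beside 10.7% and 6.09% of all genes), among them Bmp6 and Smad6, an inhibitor of BMP signaling (0.84 ± 0.24, adjusted p = 0.426). Other comparisons went the other way. The same threshold was met by 1 of the 20 (5%) in Sirt2-/- against Control, beside 14.9% of all genes. In Sirt2-/-/CE against Sirt2-/- it was met by 0 (0%), beside 7.25%. None was called by edgeR in any comparison; DESeq2 and limma voom called Bmp6 in CE against Control (adjusted p = 0.0047 and 0.0346). The interaction was 1.44 ± 0.48 for Bmp6 (adjusted p = 0.45) and 2.37 ± 0.89 for Id1 (adjusted p = 0.484; 1.47 without Control replicate 3).

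Of 12 genes of heme synthesis, Clpx, a mitochondrial protease subunit that acts on ALAS, did not overlap between CE and Control and was higher in CE (1.14 ± 0.40, edgeR, adjusted p = 0.285), and Slc25a38, a glycine carrier of mitochondria, was at 0.35 ± 0.18 in Sirt2-/-/CE against Sirt2-/- (adjusted p = 0.709). Of 12 genes of heme breakdown, transport and scavenging, edgeR called 0 in any comparison; limma voom called Hpx in CE (0.95 on the log2 scale, adjusted p = 0.042) and Cd163, the hemoglobin scavenger receptor of macrophages, in Sirt2-/- (1.47, adjusted p = 0.013), each against Control. Hpx was at 1412 to 3758 FPKM in Control, 2022 to 4873 in CE and 1849.8 to 3049 in Sirt2-/-/CE, with -0.76 ± 0.29 for Sirt2-/-/CE against CE (adjusted p = 0.672). Haptoglobin (Hp), which binds free hemoglobin, had an interaction of -1.60 ± 0.61 (adjusted p = 0.49), the opposite sign to Hamp. Of 10 genes of iron-sulfur cluster assembly, edgeR called 0 in any comparison; among calls of limma voom was Cisd1, an iron-sulfur protein of the outer mitochondrial membrane, in Sirt2-/- against Control (-0.64, adjusted p = 0.00864). Of the 3 genes of iron sensing, edgeR called 0 in any comparison, and all had fitted values below 0 in CE and in Sirt2-/- against Control; limma voom called Ireb2, which encodes an iron regulatory protein, in the latter (-0.56, adjusted p = 0.0374). Cd163, Cisd1, Ireb2 and Pcbp1 are named because an alternative called them, after their values were seen. Median log2 fold changes for CE and for Sirt2-/-, each over Control, were 0.00 and 0.08 for iron uptake, storage and release, -0.10 and -0.22 for iron sensing, -0.02 and -0.15 for hepcidin control, 0.06 and -0.04 for heme synthesis, 0.13 and 0.20 for heme breakdown, and -0.06 and -0.02 for iron-sulfur cluster assembly. Over the 72 genes, an unadjusted p under 0.05 was met by 14 for CE (7 higher, 7 lower) and by 17 for Sirt2-/- (7 higher, 10 lower), each against Control, which is 19.4% and 23.6% of them, beside 10.7% and 14.9% of all genes, and the median log2 fold changes were 0.02 and -0.05, beside -0.01 and 0.02 over all genes. In Sirt2-/-/CE it was met by 2 against Sirt2-/- (2.78%, beside 7.25% of all genes) and by 7 against CE (9.72%, beside 6.09%).

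**Figure D4:**
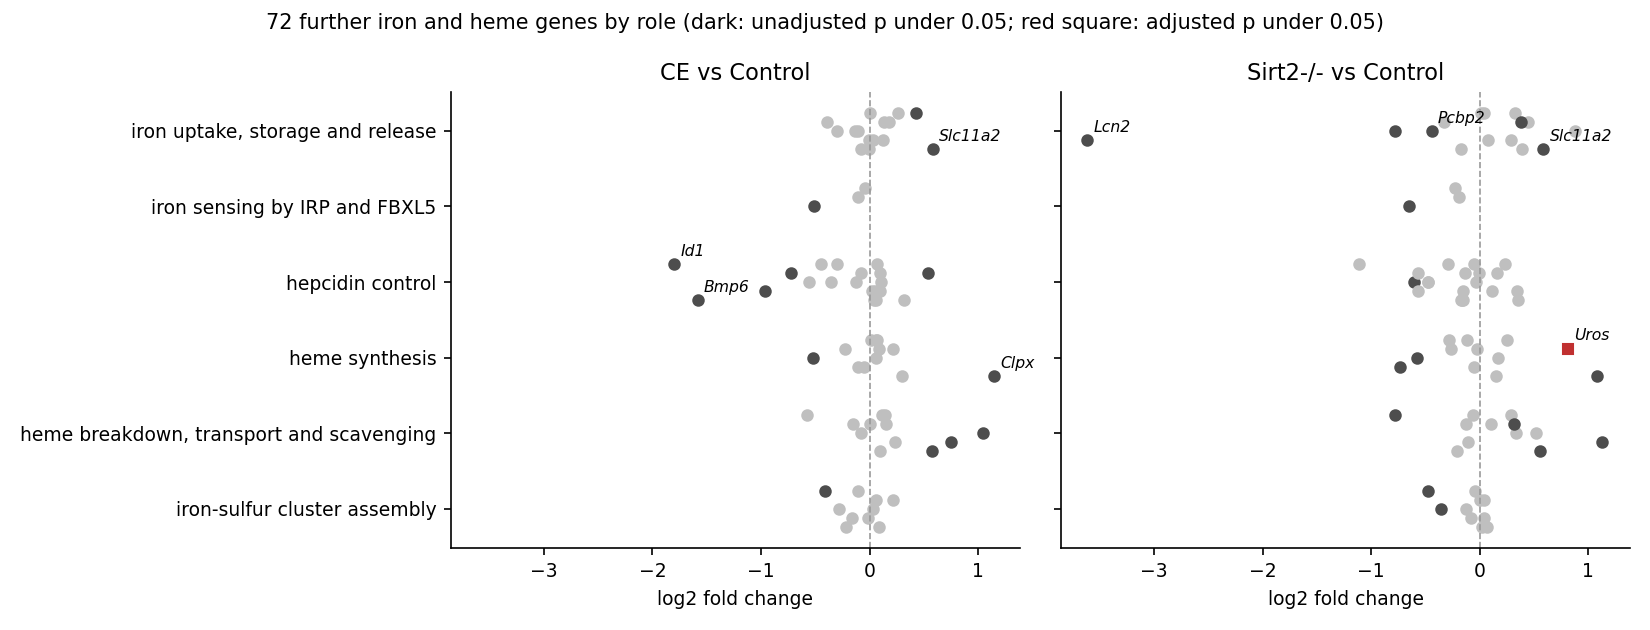
Log2 fold change of 72 further iron and heme genes by role, in CE (left) and Sirt2-/- (right) against Control; light points have an unadjusted p of at least 0.05, dark points a lower one, and the red square marks the call of Uros at 0.81. The lists hold points on both sides of 0, except iron sensing, whose 3 genes lie below 0 in both panels; Id1 (-1.80) and Bmp6 (-1.58) lie farthest left in CE and Lcn2 (-3.62) in Sirt2-/-.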

How the data were processed

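Liver RNA was enriched with oligo(dT), primed with random hexamers and sequenced on an Illumina NovaSeq instrument. The authors deposited 1 table with whole-number read counts per gene, without normalization, and FPKM values, which they scaled to gene length and depth. Per the submitters' processing notes the build is mm10; the aligner, counter and use of strand are not given in the sources used here. Of the lines, 9 hold no gene; 0 columns belong to other samples.

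Groups were taken from the labels. Counts were fitted with edgeR 4.0.16 in R 4.3.3 (quasi-likelihood test, TMM scaling, filterByExpr at 10 counts with a total of 15 or more, all 20 libraries), which left 15616 genes, all 10 described genes among them. P-values were adjusted over these genes (Benjamini-Hochberg), and a call is an adjusted p under 0.05. SE were computed from each F statistic and its fold change. Overlap of groups was judged in TMM-scaled CPM; for the 10 genes FPKM gave the same. Depth of 35499796 to 53917339 counts and 5 mice per group set the precision; p-values measure the spread between these mice. No 2 libraries agreed within sampling noise. Alternatives used limma 3.58.1, DESeq2 1.42.0, FPKM with a pseudocount of 0.1, other scalings and filters, a clock covariate and the removal of each mouse. The removal of the library lowest in endothelial markers in each of Control, CE and Sirt2-/- was added after seeing the data.

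The 10 genes, the lists and the tests were chosen with earlier results of these data known. Genes named beyond the 10 are Sirt2, called genes of the 72, the 2 of them with the lowest p in each direction per comparison, and the 3 genes most like each of the 10. Bmp2, named as background, and markers fall outside this rule; a result that the rule names for 1 further gene is not reported here. Elements and positions come from GENCODE vM21, promoters from RefSeq (6 of 10 genes matched); near-identical genes (95% identity over 150 bases) were searched with BLAST+ 2.17.0, and promoters aligned with Biopython 1.88. Figures used matplotlib 3.10.9.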

Additional observations from a re-analysis of the deposited data

How the results depend on the processing

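Over 30 alternatives, 1086 of 1090 refitted fold changes of the 10 genes stayed within 1 SD of the spread between mice. The 4 others belong to Slc40a1, Tfr2 and Hmox1, which were not called. This SD is that of single mice (1.09 for Hamp) and wider than the SE, so staying within it says little about stability. Hamp in Sirt2-/- against Control moved from -1.23 to -2.20, and Hamp2 in Sirt2-/-/CE against CE from 0.98 to -0.004. Small differences changed sign, such as Hmox1 in Sirt2-/-/CE against Sirt2-/- (9 of 20 refits). Calls changed too. In CE against Control, 0 of the 10 genes were called, and 1 (Hamp) with limma voom and sample quality weights. In Sirt2-/- against Control the call of Scara5 was lost (0 called) without a filter on low counts, with only the groups compared and with the clock score as a covariate. It was also lost without the library lowest in endothelial markers in each of Control, CE and Sirt2-/- (3 libraries), and without any 1 mouse (0 to 0). Its log2 fold change was -2.30 with the clock score and -2.17 without these 3 libraries, against -2.68 in the main fit. Limma voom called 3, namely Hamp, Hamp2 and Tfrc, and not Scara5. In Sirt2-/-/CE against CE, DESeq2 called 1, Scara5. For the 72 further genes, the count in CE against Control was 2 with DESeq2, 3 with limma voom, 1 without these 3 libraries and 0 to 1 without 1 mouse (Bmp6, without Control replicate 4). In Sirt2-/- against Control it was 3 with DESeq2, 7 with limma voom, 0 with upper-quartile scaling, 3 with scaling by library size only, 0 without the filter, 0 with only the groups compared, 0 with the clock score, 2 with log2 FPKM, 2 without these 3 libraries and 0 to 1 without 1 mouse. Of all genes, these alternatives called 0 to 540 in CE against Control and 0 to 906 in Sirt2-/- against Control. With 1 mouse left out, 0 to 68 and 5 to 375 were called. Apart from the smaller number of samples where mice were left out, the cause of the changes in calls was not tested. Scaling by library size only moved the median of all genes to 0.16 in Sirt2-/- against Control, from 0.02. No paired analysis was possible because the replicate numbers run from 1 to 20 and no 2 groups share one. Scara5 had 30 to 289 counts in knockouts; the part of depth in its spread was not tested.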
